A study of Homo sapiens with 101 samples.

Results

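The proteasome subunit genes were described across 101 arrays of the colorectal cancer cell lines SW480 and SW620. They were taken by symbol: PSMA, PSMB, PSMC, PSMD, PSME or PSMG followed by a number, leaving out PSMB8, PSMB9, pseudogenes and 8 symbols that go on after the number. This gave 39 measured members among 19775 genes. Another 6 symbols of these families (PSMA6, PSMB11, PSMC5, PSMD7, PSMD13 and PSME2) were not analysed here. The 39 members comprised 15 genes of the 20S core, 14 of the 19S cap, 7 assembly chaperones and 3 activators. PSMA8, a core subunit known from testis, was dim at a mean log2 value of 3.37, and its values say little. The other 38 members lay between percentiles 82.8 (PSMB10) and 99.2 of all genes by mean level.

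The proteasome is the main machine for breaking down ubiquitin-tagged proteins. Its 20S core is a barrel of alpha rings, which gate entry, and beta rings, in which PSMB6, PSMB7 and PSMB5 carry the caspase-like, trypsin-like and chymotrypsin-like cutting sites. The 19S cap binds ubiquitin chains and feeds unfolded substrate into the core with a ring of ATPases (PSMC genes) and a lid and base of non-ATPase subunits (PSMD genes). Assembly needs chaperones, PSMG1 to PSMG4 for the core and PSMD5, PSMD9 and PSMD10 for the cap base. The activators PSME1, PSME3 and PSME4 can take the place of the cap at the barrel's ends. PSMB10 replaces PSMB7 in the immunoproteasome. Because subunits are used in fixed proportions, their genes are known to be regulated together, in human cells by the transcription factor NRF1 (gene NFE2L1) when proteasome activity is short.

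In both lines, 1 of 6 genes was knocked down by short hairpin RNA: CDK5 (a cyclin-dependent kinase), HRAS (a RAS GTPase), MAP2K1 and MAP2K2 (the MEK kinases), MAPK3 (an ERK kinase) and NGFR (a neurotrophin receptor). The labels speak of 8 knocked-down genes; 6 were analysed here. Transduction itself was controlled by an empty vector or a non-target hairpin, together called the vector controls below (24 arrays), beside cells that had not been transduced. Groups held 6 arrays, save the CDK5 knockdown in SW620 with 5 and the non-transduced groups with 3 each. The labels name the arrays in 4 styles, called label series here: replicate 1 (17 arrays), replicate 2 (18), replicates 3 to 6 (64) and replicate 7 (2 arrays, non-transduced only). The labels call the replicates biological, but do not say whether the 4 arrays of replicates 3 to 6 came from separate cultures, so a p-value measures the spread between these arrays, which may be technical. The hairpin code on the HRAS labels of replicate 1 is not that of replicates 3 to 6, and replicate 2 has no code.

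In such bulk RNA, fewer cells of a kind and less RNA per cell cannot be told apart. Values are deposited log2 expression levels made with RMA. Changes are given on the log2 scale as knockdown minus vector controls of the same line, ± the standard error, from a limma model of all arrays with a term for label series within line. A gene rose or fell where its Benjamini-Hochberg adjusted p over 19775 genes was under 0.05. All 6 knockdowns of a line were set against the same 12 control arrays, so their results are not independent of each other.

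Of the arrays, 6 stood apart. A GAPDH 3′ minus 5′ probe difference over 2 (log2), a sign of degraded RNA, was seen in SW620 for MAP2K1 replicate 2 (6.04), NGFR replicate 1 (3.82) and MAPK3 replicate 2 (2.95), called arrays of degraded RNA below. On 3 SW480 arrays of replicate 1, genes of SW620 took a share over 0.25 (MAP2K2 0.70, MAPK3 0.54, MAP2K1 0.39), where the next array had 0.17. Label series differed in their whole distribution: the 90th percentile of an array lay between 8.82 and 8.97 in replicates 3 to 6 and between 8.19 and 8.58 in replicates 1 and 2. The targeted gene fell in its own knockdown, averaged over both lines, with changes of -1.63 ± 0.15 (CDK5), -1.30 ± 0.20 (HRAS), -1.61 ± 0.10 (MAP2K1), -1.87 ± 0.23 (MAP2K2), -0.45 ± 0.06 (MAPK3) and -1.98 ± 0.19 (NGFR). In SW620 alone the change of NGFR (-0.52 ± 0.26) missed the threshold (adjusted p = 0.136), while in SW480 it was -3.43 ± 0.26. HRAS changed by -1.86 ± 0.28 in SW480 and -0.74 ± 0.28 in SW620. In SW620 its difference from the controls was -1.99 in replicate 1, -0.74 in replicate 2 and -0.42 on average in replicates 3 to 6. MAPK3 changed by -0.32 ± 0.08 in SW480 and -0.59 ± 0.08 in SW620. On the SW480 array of replicate 1 MAPK3 was not lowered (0.15, above all its controls), and on the other 5 it lay below them. By limma, SW620 minus SW480 passed for HRAS (1.13 ± 0.40, adjusted p = 0.0369) and NGFR (2.91 ± 0.37, adjusted p = 2.64e-09), and for no other target. Of 9 colon epithelial marker genes 6 lay above the median gene level, against 0 of 6 leukocyte, 1 of 4 endothelial and 1 of 6 fibroblast markers.

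In SW620, knockdowns came with higher proteasome gene levels across the core and the cap, while in SW480 members changed in both directions, in numbers that depended on the arrays used. Over the 39 members and 6 knockdowns, 113 of 234 changes in SW620 were rises and 8 were falls, against 12 rises and 16 falls in SW480. Over the same knockdowns 12% of changes of all genes in SW620 were rises and 13.6% falls, and in SW480 6.11% and 7.32%. With replicates 3 to 6 only, the members gave 161 rises and 30 falls in SW620 (22.5% and 26.3% of all genes) and 51 and 69 in SW480 (18.5% and 21.5%). With replicates 1 and 2 only, a setting chosen after seeing the data, limma gave 0 member rises and 0 falls in both lines, with 0.0573% to 0.284% of all genes passing in a direction, and at an unadjusted p under 0.05 it gave 32 rises and 2 falls in SW620 and 12 and 4 in SW480. Centring each array on its median gave 24 rises and 14 falls in SW480, and a further quantile normalisation 28 and 20, so the balance there depends on the scaling. The median member changed in SW620 by 0.28 for CDK5, 0.37 for HRAS, 0.32 for MAP2K1, 0.33 for MAP2K2, 0.26 for MAPK3 and 0.07 for NGFR. In SW480 the medians were 0.02, 0.10, -0.00, 0.07, 0.08 and 0.04. The median over all genes was between -0.02 and 0.05 in every comparison of knockdowns, lines and controls. On the arrays themselves, the median of the 39 members lay between 10.33 and 10.47 on the 8 SW620 vector controls of replicates 3 to 6, and between 10.67 and 10.89 on the 20 arrays of the CDK5, HRAS, MAP2K1, MAP2K2 and MAPK3 knockdowns. These ranges did not overlap. The 4 NGFR arrays, at 10.33 to 10.43, overlapped the control range, with replicate 4 (10.327) just below the lowest control (10.330). In SW480 the same control arrays had medians of 10.92 to 11.09, and the 20 arrays of the same 5 knockdowns, at 10.59 to 11.05, overlapped them. The 4 NGFR arrays of SW480, at 10.61 to 10.70, lay below all 8 controls.

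**Figure D1:**
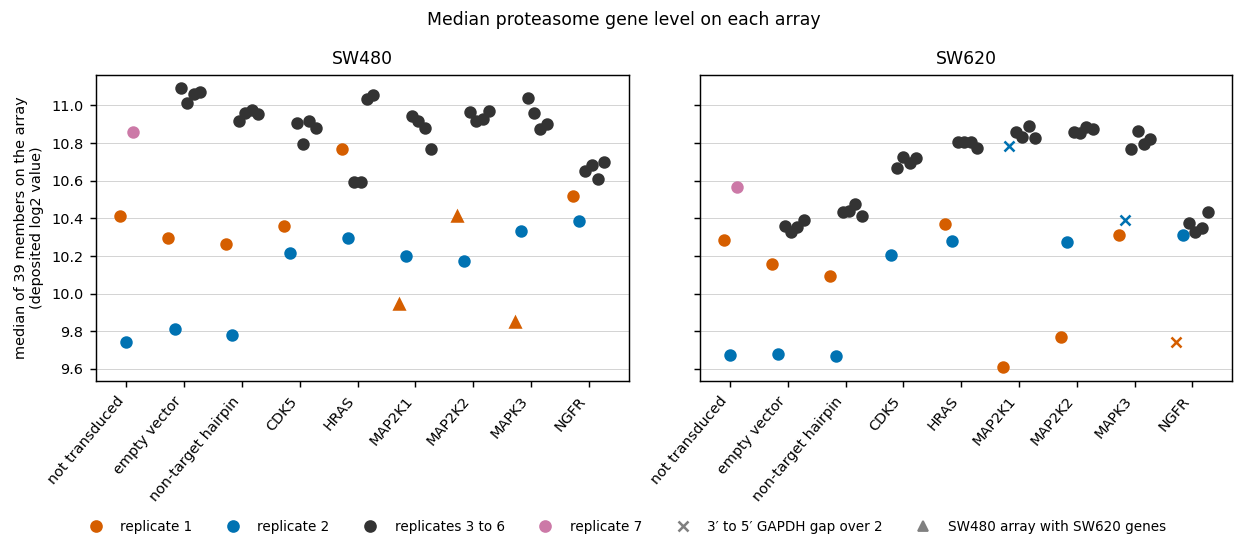
Median of the 39 proteasome genes on each array (y axis, deposited log2 value) for the 9 treatments (x axis) in SW480 (left) and SW620 (right), each point 1 array coloured by label series; crosses are arrays with a GAPDH 3′ minus 5′ difference over 2 and triangles SW480 arrays with SW620 genes. Among the black points of replicates 3 to 6, the SW620 knockdowns other than NGFR sit between 10.67 and 10.89, above the vector controls at 10.33 to 10.47, while the SW480 points overlap apart from NGFR, at 10.61 to 10.70 below the controls.

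The label series did not all show this alike. In replicate 2 the median member difference from the vector controls was positive for every knockdown, from 0.56 to 0.88 in SW620 and from 0.33 to 0.60 in SW480. In SW620 the replicate 2 values of MAP2K1 (0.88) and MAPK3 (0.70) came from arrays of degraded RNA. The other knockdowns gave 0.56 to 0.72 there. Replicate 1 was mixed, from -0.24 to 0.35 in SW620 and from -0.43 to 0.27 in SW480. Its SW480 arrays with SW620 genes gave -0.43 (MAPK3), -0.34 (MAP2K1) and -0.08 (MAP2K2), while CDK5, HRAS and NGFR gave -0.14, 0.27 and 0.11. Its NGFR array of SW620, of degraded RNA, gave -0.02. In replicates 3 to 6 the median member difference was 0.27 to 0.37 in SW620, apart from NGFR at 0.02, and -0.10 to 0.06 in SW480. The vector controls of replicate 2 had low member medians, 9.67 to 9.68 in SW620 and 9.78 to 9.81 in SW480, and the 1 non-transduced array of each line in replicate 2 had 9.68 and 9.74. In replicate 1 the controls lay at 10.09 to 10.16 in SW620 and 10.26 to 10.29 in SW480. Without any term for label series, 20 rises and 1 fall remained in SW620, and with replicates 3 to 6 averaged in pairs by their name endings 39 rises and 1 fall. Without the 6 arrays that stood apart the count was 142 and 8, with replicates 3 to 6 only 161 and 30, and with replicates 1 and 2 only 0 and 0.

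**Figure D2:**
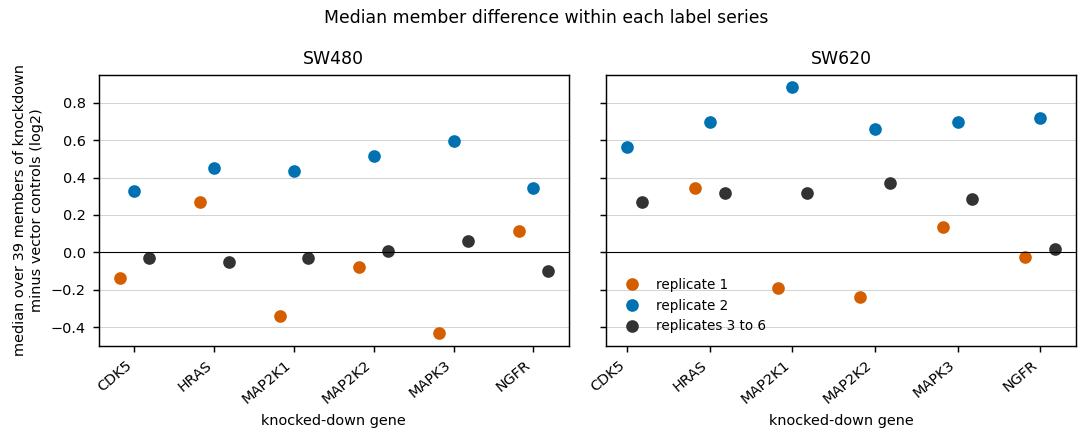
Median over 39 members of knockdown minus vector controls, log2, taken within line and label series (y axis) for each knockdown (x axis), SW480 left and SW620 right; 1 point per label series. Replicate 2 is above 0 for all 6 knockdowns in both lines, replicates 3 to 6 are at 0.27 to 0.37 in SW620 for 5 knockdowns and near 0 in SW480, and replicate 1 takes both signs. In SW620 the replicate 2 points of MAP2K1 and MAPK3 and the replicate 1 point of NGFR are arrays of degraded RNA. In SW480 the replicate 1 points of MAP2K1, MAP2K2 and MAPK3 are arrays with SW620 genes.

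By knockdown in SW620, CDK5 gave 17 rises and 0 falls among the members, where 10.6% of all genes rose and 13.4% fell. HRAS gave 25 rises and 2 falls, against 14.2% and 16.8% of all genes. MAP2K1 gave 21 and 1, against 9.77% and 9.28%. MAP2K2 gave 22 and 1, against 10.5% and 12.7%. MAPK3 gave 19 and 0, against 13.9% and 15.9%. NGFR gave 9 and 4, against 12.9% and 13.4%. At an unadjusted p under 0.05 the limma test gave 0 member falls for CDK5 and 0 for MAPK3. Members that rose in all 6 knockdowns in SW620 were PSMB5, PSMB10, PSMD1, PSMD2 and PSME4, and PSMA3, PSMA4, PSMA7, PSMB3 and PSMC6 rose in 5. Members that changed in none were PSMA1, PSMA8, PSMC3, PSMD3, PSMD8 and PSMD14. The shares of all genes that rose in all 6, in 5 or changed in none were not counted. The 6 knockdowns share their control arrays, so repeated rises are not independent.

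In SW480 the CDK5 knockdown gave 1 member rise (PSMD4) and 0 falls, where 4.15% of all genes rose and 3.9% fell. HRAS gave 6 rises and 5 falls, against 9.97% and 16.2%. MAP2K1 gave 1 and 2, against 3.2% and 3.34%. MAP2K2 gave 0 and 2, against 2.07% and 3.09%. MAPK3 gave 0 and 1, against 4.21% and 6.46%. NGFR gave 4 and 6, against 13.1% and 10.9%. At an unadjusted p under 0.05 the limma test gave 2 falls for CDK5, 3 rises for MAP2K2 and 4 rises for MAPK3. These shares lay near those of all genes. Of the 39 members, 20 changed in none of the 6. The share of all genes that changed in none was not counted, so the 20 cannot be set against it.

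Averaged over both lines, 89 of 234 changes were rises and 12 were falls. The CDK5 knockdown gave 13 member rises and 0 falls, where 8.71% of all genes rose and 10.7% fell. HRAS gave 20 and 5 (15.4% and 20.6%), MAP2K1 11 and 1 (7.4% and 7.82%), and MAP2K2 19 and 2 (7.99% and 11.2%). MAPK3 gave 15 and 0 (11.6% and 14%) and NGFR 11 and 4 (14.1% and 14.6%). At an unadjusted p under 0.05 limma gave 0 falls for CDK5 and for MAPK3. PSMB5, PSMC6 and PSME4 rose in all 6 on this average, against shared controls, and the share of all genes that did so was not counted.

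**Figure D3:**
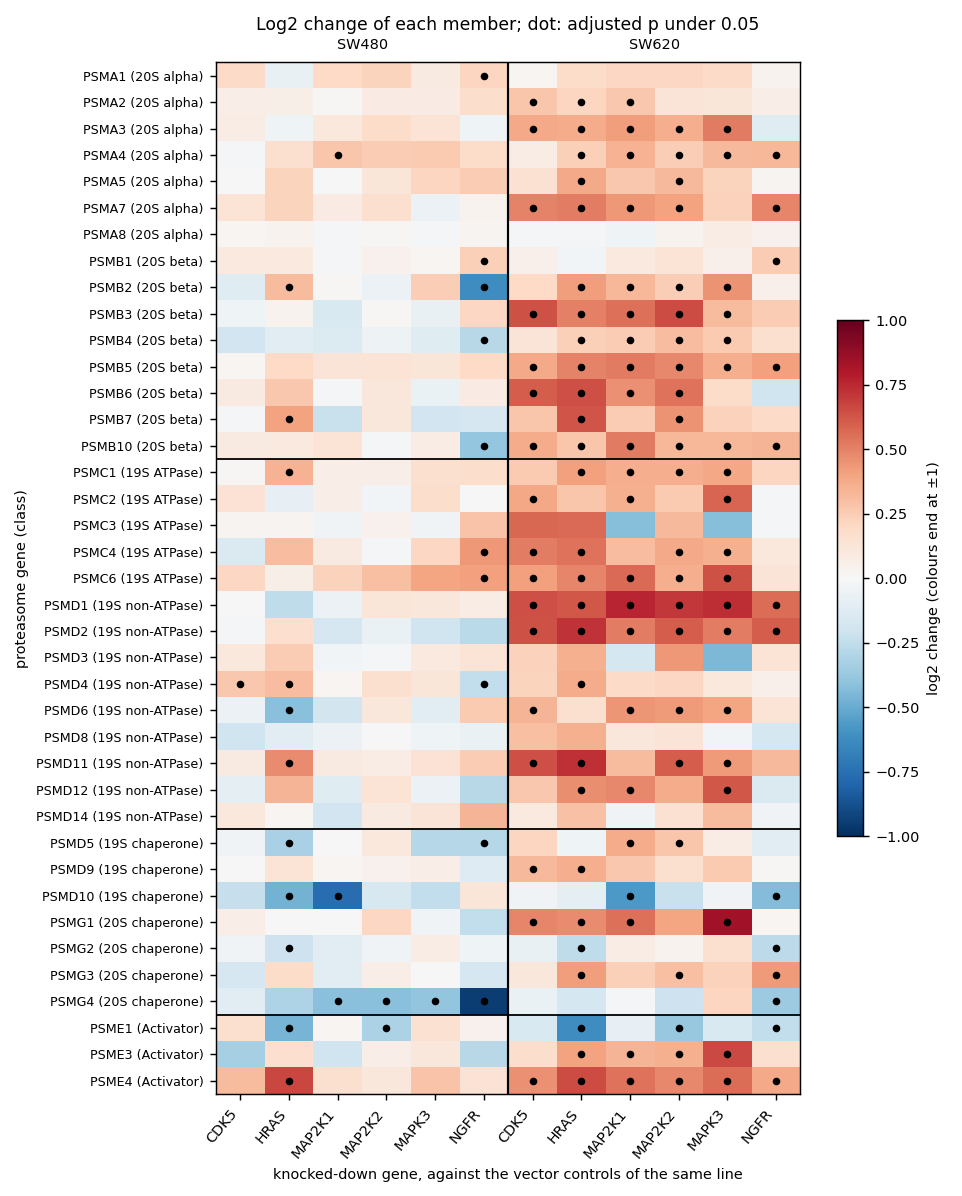
Log2 change of each of the 39 members (rows, grouped into 20S core, 19S cap, assembly chaperones and activators) in each knockdown (columns, SW480 left and SW620 right), red higher and blue lower than the vector controls of the same line; a dot marks an adjusted p under 0.05. The right side holds 113 rises and 8 falls and the left side 12 rises and 16 falls, with the falls mostly among assembly chaperones, PSME1 and, for NGFR in SW480, beta subunits.

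Since many members moved together in SW620, the 250 bases before the transcription start of 33 members with a RefSeq promoter entry (GRCh38.p14) were searched on both strands. The core of the antioxidant response element, TGACNNNGC, which NRF1 with a small MAF protein is known to bind, was found before 10 of the 33 (30.3%), against 13.2% of 27305 genes with an entry. CCAAT was found before 15 (45.5%, against 37.0%) and the GC box GGGCGG before 20 (60.6%, against 46.2%). A match is a match of letters only. Of the 10 holders of TGACNNNGC, PSMA4, PSMB3, PSMD5, PSMD9, PSMD12, PSME4 and PSMG1 rose in 2 to 6 knockdowns in SW620. PSME1 and PSMG2 rose in none there and fell in 3 and 2, and PSMD3 changed in none. Whether a match goes with a rise was not tested. Shown are PSMB3, PSMD12 and PSMG1, which hold TGACNNNGC 104, 165 and 183 bases before the start, and PSMD1, which rose in all 6 knockdowns in SW620 and holds neither TGACNNNGC nor CCAAT in this window but 3 GC boxes. Sequences are 5′ to 3′ on the gene's strand, and capitals mark TGACNNNGC and CCAAT on either strand.
PSMB3 (chr17:38752491-38752740, plus strand): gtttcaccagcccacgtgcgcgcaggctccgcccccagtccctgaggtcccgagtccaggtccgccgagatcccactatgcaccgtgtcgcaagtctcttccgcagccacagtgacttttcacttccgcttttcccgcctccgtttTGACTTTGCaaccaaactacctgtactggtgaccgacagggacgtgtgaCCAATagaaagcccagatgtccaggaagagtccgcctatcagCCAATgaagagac
PSMD12 (chr17:67366578-67366827, minus strand): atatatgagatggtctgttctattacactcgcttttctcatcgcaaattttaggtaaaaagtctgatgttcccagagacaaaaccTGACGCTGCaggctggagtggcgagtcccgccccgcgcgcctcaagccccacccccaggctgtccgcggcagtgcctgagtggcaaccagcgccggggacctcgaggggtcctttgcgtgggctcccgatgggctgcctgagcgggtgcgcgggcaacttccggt
PSMG1 (chr21:39183452-39183701, minus strand): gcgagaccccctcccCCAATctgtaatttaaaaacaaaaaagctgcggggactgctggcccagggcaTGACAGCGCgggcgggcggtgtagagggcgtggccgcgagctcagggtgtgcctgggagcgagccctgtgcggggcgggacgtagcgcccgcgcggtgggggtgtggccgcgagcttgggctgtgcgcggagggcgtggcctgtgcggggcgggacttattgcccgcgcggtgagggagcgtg
PSMD1 (chr2:231056617-231056866, plus strand): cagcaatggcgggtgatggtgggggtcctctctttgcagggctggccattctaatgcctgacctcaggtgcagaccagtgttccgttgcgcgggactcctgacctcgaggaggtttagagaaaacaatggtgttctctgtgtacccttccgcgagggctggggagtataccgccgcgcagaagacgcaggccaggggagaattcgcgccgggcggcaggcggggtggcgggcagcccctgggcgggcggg

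Over all arrays, every 20S core member that passed in SW620 rose. Core members rose 7, 12, 10, 11, 7 and 5 times of 15 for CDK5, HRAS, MAP2K1, MAP2K2, MAPK3 and NGFR, with none falling (9.77% to 14.2% of all genes rose and 9.28% to 16.8% fell), and their median changes were 0.28, 0.37, 0.33, 0.32, 0.23 and 0.16. At an unadjusted p under 0.05 the limma test likewise gave no fall of a core member there. In SW480 core members rose 0, 2, 1, 0, 0 and 2 times, and 3 fell, all for NGFR. Of all genes in SW480, 2.07% to 13.1% rose and 3.09% to 16.2% fell, with 13.1% and 10.9% for NGFR. The 2 rises of 15 with NGFR are near that share.

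PSMB5, the chymotrypsin-like subunit and the site that the drug bortezomib blocks, rose by 0.36 ± 0.09 (MAPK3) to 0.52 ± 0.09 (MAP2K1) in SW620. In replicates 3 to 6 its SW620 values were 10.19, 10.24, 10.26 and 10.24 with the empty vector and 10.40, 10.44, 10.47 and 10.41 with the non-target hairpin. They were 10.67, 10.72, 10.69 and 10.72 with CDK5, 10.87, 10.84, 10.89 and 10.83 with MAP2K1, and 10.68, 10.65, 10.61 and 10.73 with NGFR knocked down. Every knockdown array lay above every control, and the non-target arrays lay above the empty vector arrays. In SW480 PSMB5 ran from 10.68 to 10.84 on the 8 controls and from 10.59 to 10.88 on the knockdown arrays, which overlapped, and it changed in none of the 6 (0.02 to 0.20). Its rise averaged over both lines with NGFR (0.30 ± 0.07, adjusted p = 0.000227) missed the threshold with replicates 1 and 2 only (0.51, adjusted p = 0.242) and passed in the other settings run.

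PSMB6, the caspase-like subunit, rose in SW620 with CDK5 (0.60 ± 0.14), HRAS (0.65 ± 0.13), MAP2K1 (0.46 ± 0.13) and MAP2K2 (0.54 ± 0.13). With CDK5, where it was among the 3 largest rises on the average over both lines (0.35 ± 0.09, adjusted p = 0.00439), the SW620 values were 11.53 in replicate 2 and 11.80, 11.73, 11.77 and 11.78 in replicates 3 to 6. The controls were 10.41 and 10.54 in replicate 2 and 11.18 to 11.35 in replicates 3 to 6, so no array overlapped its controls. In SW480 the CDK5 arrays of replicates 3 to 6 (11.80 to 11.91) lay within the controls (11.78 to 11.92).

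With NGFR knocked down in SW620, the label series of PSMB6 pointed opposite ways. Replicates 1 and 2 had 11.72 and 11.53, above their controls (11.32 and 11.33; 10.41 and 10.54). Replicates 3 to 6 had 10.62, 10.56, 10.64 and 10.63, below all 8 of theirs (11.18 to 11.35). The change over all series was -0.20 ± 0.13 (adjusted p = 0.263), but with replicates 3 to 6 alone PSMB6 fell by 0.66 (adjusted p = 2.46e-31), and without the array of degraded RNA by 0.34 (adjusted p = 0.0296).

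PSMB7, the trypsin-like subunit, rose with HRAS in both lines (SW480 0.40 ± 0.12, SW620 0.63 ± 0.12; average 0.51 ± 0.09, adjusted p = 6.71e-07), and with MAP2K2 in SW620 (0.45 ± 0.12). The HRAS values in SW620 were 11.15 and 10.87 in replicates 1 and 2 and 11.40, 11.37, 11.41 and 11.36 in replicates 3 to 6, against controls of 10.37 and 10.47, 10.06 and 10.07, and 10.78 to 10.88. All 6 lay above their controls. In SW480 they were 12.16 and 11.51 in replicates 1 and 2 and 11.83, 11.75, 12.12 and 12.13 in replicates 3 to 6, where the controls were 11.76 to 11.92; 2 of these 4 did not lie above the controls. PSMB7 was also the member whose residuals followed the mean of the other members most closely (r = 0.912 over 101 arrays).

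PSMB3, a beta subunit without a cutting site, responded unevenly between the lines. In SW620 it rose in 5 knockdowns, most with MAP2K2 (0.65 ± 0.13) and CDK5 (0.64 ± 0.13), and in SW480 in none (-0.15 to 0.20). The SW620 values of replicates 3 to 6 were 10.92, 10.96, 10.93 and 10.94 with the empty vector, 11.12, 11.04, 11.06 and 11.05 with the non-target hairpin, and 11.61, 11.60, 11.77 and 11.65 with MAP2K2 knocked down. The NGFR arrays, at 11.02, 10.93, 10.94 and 11.05, lay among the controls. In SW480 the MAP2K2 values, 11.81, 11.93, 11.90 and 12.02, overlapped the controls (11.91 to 12.05). The rises with CDK5 and MAP2K2 in SW620 missed the threshold with replicates 1 and 2 only (0.88, adjusted p = 1; 0.65, adjusted p = 0.921) and passed in the other settings run.

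PSMB2, another beta subunit, separated NGFR from the other knockdowns in SW480. There it fell by 0.62 ± 0.09 (adjusted p = 2.99e-08), with values of 10.83 and 10.43 in replicates 1 and 2 and 10.52, 10.61, 10.55 and 10.63 in replicates 3 to 6. The controls were 11.10 and 11.36, 10.68 and 10.68, and 11.28 to 11.42, so all 6 NGFR arrays lay below their controls. In SW620 the NGFR change was 0.05 ± 0.09, and the difference between the lines (0.67 ± 0.13, adjusted p = 2.04e-05) passed. PSMB2 rose in SW620 with HRAS (0.42), MAP2K1 (0.33), MAP2K2 (0.25) and MAPK3 (0.45), each ± 0.09, and in SW480 with HRAS (0.32 ± 0.09).

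PSMB10, the immunoproteasome beta subunit, rose in SW620 with all 6 knockdowns, from 0.28 ± 0.08 (HRAS) to 0.52 ± 0.08 (MAP2K1). With MAP2K1 its values there were 8.47, 8.45, 9.81, 9.81, 9.71 and 9.72 in replicates 1 to 6, against controls of 8.09 and 8.10, 7.63 and 7.89, and 9.12 to 9.37. No array overlapped its controls. In SW480 it fell with NGFR (-0.38 ± 0.08), where the values of replicates 3 to 6 were 8.49, 8.51, 8.49 and 8.55 against controls of 8.81 to 9.06. Other immunoproteasome subunits were not part of the set, and PSMB10 shared little of the members' variation (r = 0.161 with the mean of the others).

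The alpha subunits moved less. PSMA7 rose in SW620 in every knockdown but MAPK3, by 0.40 ± 0.10 (MAP2K2) to 0.51 ± 0.10 (HRAS), and PSMA3 in every one but NGFR, by 0.37 ± 0.14 (HRAS and MAP2K2) to 0.52 ± 0.14 (MAPK3). PSMA4 rose by 0.24 to 0.34, each ± 0.09, in every one but CDK5. PSMA1 changed in none of the 6 in SW620 (0.02 to 0.21), and PSMA7 and PSMA1 are read by probe sets marked as open to cross-hybridisation, as are PSMD4 and PSME3.

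In the 19S cap the base subunits PSMD1 and PSMD2, the large scaffold that docks shuttle proteins, rose in all 6 knockdowns in SW620 and in none in SW480. Cap members rose 7, 8, 7, 7, 9 and 2 times of 14 in SW620, with no fall (9.77% to 14.2% of all genes rose), and medians were 0.36, 0.44, 0.34, 0.37, 0.39 and 0.12. In SW480 they rose 1, 3, 0, 0, 0 and 2 times and fell 0, 1, 0, 0, 0 and 1 times, where 2.07% to 13.1% of all genes rose and 3.09% to 16.2% fell.

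PSMD2 in SW620 had values of 10.24, 10.25, 10.32 and 10.24 with the empty vector and 10.31, 10.34, 10.28 and 10.35 with the non-target hairpin in replicates 3 to 6. With HRAS knocked down they were 10.95, 10.94, 10.93 and 10.97, and with NGFR 10.77, 10.80, 10.75 and 10.89. Knockdown and control ranges did not overlap. The changes over all series ran from 0.51 ± 0.14 (MAP2K1 and MAPK3) to 0.73 ± 0.14 (HRAS). In SW480 the NGFR arrays (11.41, 11.55, 11.54 and 11.58) lay below the controls (11.79 to 11.97), with a change of -0.27 ± 0.14 that missed the threshold (adjusted p = 0.154), and with replicates 3 to 6 only it fell by 0.37 (adjusted p = 2.52e-13).

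PSMD1 rose in SW620 from 0.56 ± 0.15 (NGFR) to 0.77 ± 0.15 (MAP2K1). With MAP2K1 its values were 9.51 in replicate 1, 11.12 in replicate 2 and 10.73, 10.58, 10.63 and 10.68 in replicates 3 to 6, and with MAPK3 9.41, 11.09, 10.63, 10.63, 10.70 and 10.62. The controls were 9.62 and 9.79, 8.78 and 8.84, and 9.96 to 10.17. Replicate 1 of both knockdowns lay below its controls, the replicate 2 arrays, both of degraded RNA, lay well above theirs, and replicates 3 to 6 lay above without overlap. Without the degraded arrays the changes were 0.55 and 0.52, and both passed. PSMD1 was also among the 3 largest rises averaged over both lines for MAP2K2 (0.41 ± 0.11, adjusted p = 0.00356), MAPK3 (0.42 ± 0.11, adjusted p = 0.00194) and NGFR (0.32 ± 0.11, adjusted p = 0.0208). In SW480 its changes for these 3 were 0.12, 0.11 and 0.08, each ± 0.15.

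PSMD11, a lid subunit whose level is known to set the amount of assembled cap, rose with HRAS in both lines (SW480 0.47 ± 0.17, SW620 0.73 ± 0.17; average 0.60 ± 0.12, adjusted p = 2.06e-05). The SW620 values were 9.78, 9.20, 10.25, 10.19, 10.03 and 10.14 in replicates 1 to 6, against controls of 8.84 and 8.91, 7.99 and 8.00, and 9.32 to 9.71, with no overlap. In SW480 they were 10.77, 9.46, 10.43, 10.53, 10.83 and 10.91, and replicate 3 lay within the controls (10.26 to 10.52). Averages over both lines for CDK5 (0.37 ± 0.12, adjusted p = 0.0234) and MAP2K2 (0.34 ± 0.12, adjusted p = 0.0318) also passed. With MAPK3 in SW620 its probe sets disagreed: the brighter one rose (0.43 ± 0.17) and the dimmer one was at -1.07 ± 0.14.

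PSMC6, a cap ATPase, was higher in all 6 knockdowns on the average of both lines, most with MAPK3 (0.51 ± 0.10, adjusted p = 2.62e-05). For MAPK3 the SW620 values were 9.46, 10.67, 11.24, 11.09, 11.11 and 11.28 in replicates 1 to 6, against controls of 9.08 and 9.17, 8.57 and 8.67, and 10.71 to 10.94. The SW480 values were 9.28, 9.35, 11.38, 11.26, 11.36 and 11.13, against 9.11 and 9.29, 7.92 and 8.15, and 10.95 to 11.09. Only replicate 1 of SW480, an array with SW620 genes, fell within its controls. MAP2K1 (0.40 ± 0.10, adjusted p = 0.00233) and MAP2K2 (0.33 ± 0.10, adjusted p = 0.0104) had PSMC6 among their 3 largest rises as well. PSMC4, the neighbouring kind of ATPase subunit, was among the 3 largest for NGFR (0.27 ± 0.09, adjusted p = 0.0158), and rose there in SW480 (0.43 ± 0.13), where replicates 3 to 6 (10.22, 10.29, 10.23 and 10.26) overlapped the controls (9.80 to 10.29).

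PSMC3 and PSMD3 were low on arrays of degraded RNA, whose part in these values was not tested. PSMC3 read 5.71 and 3.99 on the replicate 2 arrays of MAP2K1 and MAPK3 in SW620, and PSMD3 6.75 and 4.99, where the replicate 2 controls were 9.05 and 9.06 for PSMC3 and 9.23 and 9.26 for PSMD3. In replicates 3 to 6 PSMC3 was 9.81, 9.58, 9.82 and 9.80 with MAP2K1 and 10.03, 10.07, 10.01 and 9.96 with MAPK3, above all 8 controls (9.35 to 9.53). Over all arrays their changes were negative (PSMC3 -0.43 and -0.42, PSMD3 -0.17 and -0.45) and missed the threshold. Without the degraded arrays PSMD3 rose in both (0.31, adjusted p = 0.0465; 0.33, adjusted p = 0.0215), PSMC3 rose with MAPK3 (0.54, adjusted p = 0.00386), and PSMC3 with MAP2K1 was at 0.19 (adjusted p = 0.455).

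In SW480 with HRAS knocked down, several cap and chaperone members split within replicates 3 to 6. PSMD6, a lid subunit, fell there by 0.41 ± 0.10 (adjusted p = 0.00122), with values of 10.72 and 10.63 in replicates 3 and 4 and 11.40 and 11.44 in replicates 5 and 6, against controls of 11.53 to 11.62. PSMC2 had 11.78, 11.64, 12.17 and 12.15 (controls 12.14 to 12.19), PSMC3 9.63, 9.58, 10.30 and 10.31 (controls 10.10 to 10.24), and PSMG1 10.40, 10.33, 10.97 and 10.97 (controls 10.90 to 11.00). Replicates 3 and 4 lay below the controls in each, and replicates 5 and 6 lay within or near them. Replicates 3 and 4 are a pair by their name endings, as are replicates 5 and 6, so the split followed the pairs. The array medians of the 39 members had the same split, 10.60 and 10.59 against 11.03 and 11.05. The GAPDH 3′ minus 5′ difference moved with it, at 1.39 and 1.47 against 0.41 and 0.32, and its part in these values was not tested. The SW620 arrays of the HRAS knockdown did not split in this way (PSMD6 10.99, 11.00, 11.03 and 10.98).

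Assembly chaperones passed the test in both directions. In SW620 members of this group rose 2, 3, 2, 2, 1 and 1 times of 7 and fell 0, 1, 1, 0, 0 and 3 times, and in SW480 they rose in no knockdown and fell 0, 3, 2, 1, 1 and 2 times. Of all genes, 9.77% to 14.2% rose and 9.28% to 16.8% fell in SW620, and 2.07% to 13.1% rose and 3.09% to 16.2% fell in SW480, so that 1 of 7 is near the share of all genes in several knockdowns. At an unadjusted p under 0.05 the limma test gave no rise of a chaperone in SW480 either.

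PSMD10, known as gankyrin, a cap chaperone that also binds MDM2 and CDK4, fell with MAP2K1 in both lines (SW480 -0.76 ± 0.14, SW620 -0.57 ± 0.14; average -0.67 ± 0.10, adjusted p = 4.94e-07). Its SW480 values were 8.14, 8.79, 9.51, 9.52, 9.55 and 9.45 in replicates 1 to 6, against controls of 9.75 and 9.90, 9.09 and 9.25, and 10.04 to 10.26. All 6 lay below. In SW620 they were 8.87, 10.20, 10.00, 9.86, 9.98 and 9.99, against 9.99 and 10.17, 9.67 and 9.68, and 10.53 to 10.82, and only the degraded array of replicate 2 lay above its controls. The average missed the threshold with replicates 1 and 2 only (-0.69, adjusted p = 0.515) and passed in the other settings run. With MAP2K2, the other MEK gene, PSMD10 was at 10.11, 10.11, 10.18 and 10.10 in SW620 and 9.76, 9.81, 9.75 and 9.93 in SW480 in replicates 3 to 6, below the controls of both lines. In replicates 1 and 2 it was at 10.31 and 10.19 in SW620 and 9.64 and 9.66 in SW480, where only the 9.64 lay below its controls, and the average change was -0.19 ± 0.10 (adjusted p = 0.175). HRAS gave a fall of 0.28 ± 0.10 (adjusted p = 0.0196) with the split noted above (SW480 9.26 and 9.12 against 10.01 and 10.06). With NGFR it fell in SW620 (-0.43 ± 0.14, adjusted p = 0.0164), but without the degraded array the change was -0.18 (adjusted p = 0.268).

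PSMG4, a chaperone of the core's alpha ring, fell with NGFR in both lines (SW480 -0.95 ± 0.12, SW620 -0.37 ± 0.12; average -0.66 ± 0.09, adjusted p = 3.19e-09). Its SW480 values were 8.08, 7.87, 9.30, 9.18, 9.37 and 9.28 in replicates 1 to 6, against controls of 8.97 and 8.99, 8.64 and 8.72, and 10.16 to 10.41. In SW620 they were 9.10, 8.50, 9.48, 9.39, 9.54 and 9.37, against 8.92 and 9.05, 8.53 and 8.76, and 9.95 to 10.02. All SW480 arrays lay below, and in SW620 only replicate 1, of degraded RNA, did not. PSMG4 also fell in SW480 with MAP2K1 (-0.42 ± 0.12), MAP2K2 (-0.42 ± 0.12) and MAPK3 (-0.39 ± 0.12), and on average with MAP2K2 (-0.31 ± 0.09, adjusted p = 0.00565) and HRAS (-0.24 ± 0.09, adjusted p = 0.0214). The HRAS change rests on the brightest of 5 probe sets; over the mean of all 5 it was 0.00112.

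PSMG1, partner of PSMG2 in the first step of core assembly, rose in SW620 with CDK5 (0.49 ± 0.19), HRAS (0.47 ± 0.18), MAP2K1 (0.55 ± 0.18) and MAPK3 (0.84 ± 0.18). With MAPK3 its SW620 values were 9.93, 11.20, 11.00, 10.89, 10.87 and 10.97 in replicates 1 to 6, against 9.59 and 9.90, 8.95 and 9.05, and 10.23 to 10.31. All 6 lay above, and without the degraded arrays the rise was 0.64 (adjusted p = 0.00307), while that with MAP2K1 was 0.37 and missed the threshold (adjusted p = 0.141). PSMG2 did not follow it: it fell with HRAS (SW480 -0.21 ± 0.08, SW620 -0.25 ± 0.08) and, on average, with NGFR (-0.15 ± 0.06, adjusted p = 0.0318), where the SW620 values of replicates 3 to 6 were 11.34, 11.35, 11.29 and 11.35 against 11.52 to 11.60 and the SW480 values 11.73, 11.74, 11.69 and 11.74 lay within 11.66 to 11.84. PSMG3 rose in SW620 with HRAS (0.42), MAP2K2 (0.30) and NGFR (0.42), each ± 0.10. PSMD5, an inhibitor-like cap chaperone, fell with NGFR on average (-0.19 ± 0.07, adjusted p = 0.039), at 8.92, 9.07, 9.01 and 9.09 in SW480 in replicates 3 to 6, below the controls (9.22 to 9.39). In SW620 the 4 arrays also lay below the controls (9.03 to 9.15).

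The activators went separate ways. PSME4 (PA200), a large nuclear cap that works without ATP, was higher in all 6 knockdowns on the average of both lines, from 0.26 ± 0.08 (NGFR, adjusted p = 0.00615) to 0.66 ± 0.08 (HRAS, adjusted p = 1.94e-11). With HRAS its SW480 values were 9.56, 8.66, 10.23, 10.13, 10.12 and 10.06 in replicates 1 to 6, against controls of 8.22 and 8.51, 8.14 and 8.36, and 9.34 to 9.61. The SW620 values were 8.85, 8.74, 9.63, 9.67, 9.72 and 9.63, against 7.85 and 8.05, 8.07 and 8.07, and 9.05 to 9.12. All 12 arrays lay above their controls, and the rise passed in every setting run, also with replicates 1 and 2 only (0.79, adjusted p = 0.0361). With MAPK3 (0.42 ± 0.08, adjusted p = 1.02e-05) replicates 3 to 6 were 9.92, 9.97, 9.89 and 9.96 in SW480 and 9.72, 9.64, 9.70 and 9.67 in SW620, again above all controls. CDK5 (0.39 ± 0.08, adjusted p = 0.000136) and MAP2K1 (0.35 ± 0.08, adjusted p = 0.000518) also had it among their 3 largest rises. With NGFR the replicates 3 to 6 of SW620 (9.10, 9.07, 9.09 and 9.14) overlapped the controls, while replicates 1 (9.43, degraded RNA) and 2 (8.78) lay above theirs. The 3 probe sets of PSME4 disagreed there, at 0.38 for the brightest and -0.13 and -0.75 for the others.

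PSME1, the alpha subunit of PA28, the interferon-inducible cap known from antigen processing, went the other way. It fell with HRAS in both lines (SW480 -0.47 ± 0.09, SW620 -0.62 ± 0.09; average -0.54 ± 0.07, adjusted p = 1.22e-10) and with MAP2K2 (-0.31 ± 0.09 and -0.38 ± 0.09; average -0.35 ± 0.07, adjusted p = 5.49e-05). With HRAS the SW620 values were 9.61, 9.61, 9.80, 9.80, 9.83 and 9.81 in replicates 1 to 6, against controls of 10.11 and 10.26, 9.93 and 10.12, and 10.39 to 10.60, with no overlap. The SW480 values were 9.04, 9.57, 9.88, 9.77, 10.11 and 10.14, against 10.13 and 10.51, 10.20 and 10.24, and 10.11 to 10.35, so that replicates 5 and 6 touched the control range. With MAP2K2 the SW620 values were 9.92, 9.50, 10.12, 10.08, 10.22 and 10.07, all below their controls. The average with HRAS passed in every setting run, also with replicates 1 and 2 only (-0.73, adjusted p = 0.0341), and that with MAP2K2 in all but the latter (-0.61, adjusted p = 0.243). In SW620 the changes of PSME1 were below 0 in all 6 knockdowns (-0.62 to -0.08), with NGFR (-0.24 ± 0.09, adjusted p = 0.0466) the third that passed.

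PSME3 (PA28-gamma), a nuclear cap, rose in SW620 with HRAS (0.41 ± 0.12), MAP2K1 (0.34 ± 0.12), MAP2K2 (0.35 ± 0.12) and MAPK3 (0.66 ± 0.12). The MAPK3 values of replicates 3 to 6 were 9.80, 9.78, 9.80 and 9.87, against 8.87 to 8.99, and in SW480 9.98, 10.01, 9.99 and 9.99 against 9.63 to 9.86. Both lines lay above their controls in these replicates, while over all series the change in SW480 was 0.11 ± 0.12. PSME3 was the 1 member that changed between the vector controls and non-transduced cells: in SW620 it was lower in the vector controls (-0.66 ± 0.19, adjusted p = 0.0288), and its rises there are measured from that lower level.

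**Figure D4:**
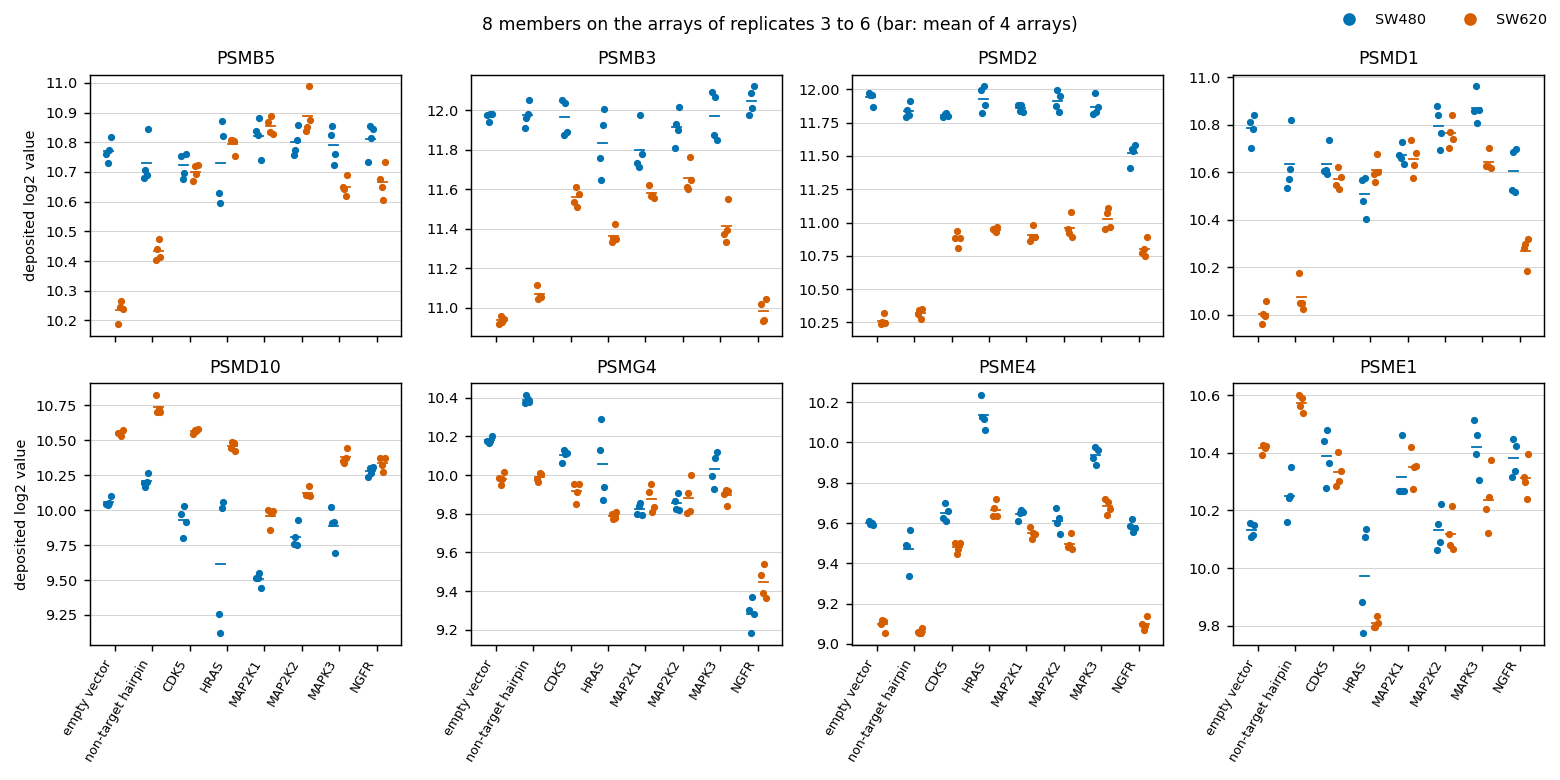
Deposited log2 values (y axis, a scale of its own in each panel) of 8 members on the arrays of replicates 3 to 6 for both vector controls and 6 knockdowns (x axis), SW480 blue and SW620 orange; each point is 1 array and each bar the mean of 4. PSMB5, PSMB3, PSMD2 and PSMD1 are higher in most SW620 knockdowns, PSMD2 is lower with NGFR in SW480, PSMD10 is low with MAP2K1, PSMG4 with NGFR and PSME1 with HRAS in both lines, and PSME4 is high with HRAS in both.

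The differences between the lines were tested as such. HRAS and NGFR themselves fell less in SW620 than in SW480, so these knockdowns were unequal between the lines. The part of this in the member differences was not tested. The knockdown change in SW620 minus that in SW480 was higher for 39 of 234 pairs of member and knockdown and lower for 1. CDK5 gave 6 higher and 0 lower members, against 6.5% and 9.06% of all genes, HRAS 5 and 0 (10.2% and 8.69%) and MAP2K1 9 and 0 (5.64% and 5.9%). MAP2K2 gave 4 and 0 (4.53% and 5.91%), MAPK3 8 and 0 (8.17% and 8.83%) and NGFR 7 and 1 (10.5% and 13.3%). At an unadjusted p under 0.05 limma gave 1, 0, 0, 0, 1 and 2 lower members. PSMB4, a beta subunit, and PSMD2 differed in all 6 (PSMB4 0.32 to 0.44, each ± 0.10; PSMD2 0.56 to 0.87). Of the 39 member differences, 1 held when the label series term was dropped, and 2 when arrays were averaged in pairs.

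The lines themselves differed most in the cap. In the vector controls, 25 members were lower and 3 higher in SW620 than in SW480, where 22.1% of all genes were lower and 23.2% higher. Of the cap, 12 of 14 members were lower, with a median of -0.82, of the core 8 of 15 were lower and 2 higher (median -0.18), and the median over all genes was -0.00. PSMD2 was lower by 1.53 ± 0.12 (adjusted p = 6.18e-20), at 10.24 to 10.35 on the 8 SW620 controls of replicates 3 to 6 against 11.79 to 11.97 in SW480. PSMC2 was lower by 1.33 ± 0.11 (adjusted p = 6.31e-18; 10.89 to 10.94 against 12.14 to 12.19) and PSMB3 by 1.00 ± 0.11 (adjusted p = 3.42e-13; 10.92 to 11.12 against 11.91 to 12.05). None of these ranges overlapped. The 3 higher members were PSMD10 (0.50 ± 0.12, adjusted p = 0.000343), PSMB10 (0.50 ± 0.07, adjusted p = 2.47e-09) and PSMA1 (0.19 ± 0.07, adjusted p = 0.0182). In SW620 the knockdown arrays of PSMD2, at 10.75 to 11.11 in replicates 3 to 6, stayed below every SW480 array of those replicates (11.41 to 12.02).

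**Figure D5:**
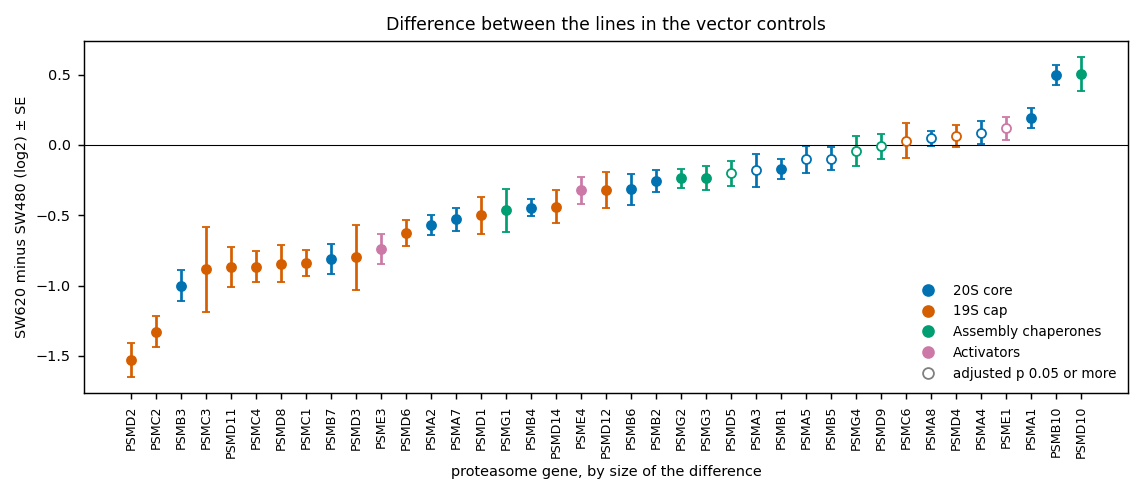
Difference between SW620 and SW480 in the vector controls for each of the 39 members (x axis, sorted), as log2 difference ± standard error (y axis), coloured by group; open circles did not pass. PSMD2 is lowest at -1.53, cap members fill most of the left side, and PSMB10 and PSMD10 are highest at 0.50.

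The controls were compared on few arrays, and the counts depended on the arrays used. The non-transduced arrays of replicate 7 are alone in their label series and are taken up by that term. Only those of replicates 1 and 2 therefore enter the main comparison with the vector controls. Between vector controls and non-transduced cells, 0 members changed on average (2.13% of all genes did), 0 in SW480 (0%) and 1, PSME3, in SW620 (5.88%), and at an unadjusted p under 0.05 limma gave 1, 0 and 2. The median member difference in SW620 was -0.12, and -0.24 for the cap, with a median over all genes of 0.05, and in SW480 0.02. Between the non-target hairpin and the empty vector 0 members changed in either line or on average (0.00506%, 0.101% and 0.086% of all genes for SW620, SW480 and the average), with 0 at an unadjusted p under 0.05 in each. With only the groups compared in the fit, 10 members were lower in the vector controls than in non-transduced cells. With replicates 3 to 6 only, 3 members were higher and 2 lower with the non-target hairpin than with the empty vector, on average. The member medians of those arrays did not overlap between the controls: in SW620 they were 10.33 to 10.39 with the empty vector and 10.41 to 10.47 with the hairpin, and in SW480 11.01 to 11.09 and 10.92 to 10.98. Counts of member rises in SW620 were 95 against the empty vector alone and 81 against the non-target hairpin alone.

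Between label series, most members differed. Replicates 3 to 6 were higher than replicate 2 for 38 members and lower for 0, where 49.4% of all genes were higher, and higher than replicate 1 for 33 and lower for 0 (44%); at an unadjusted p under 0.05 limma gave 0 lower in both. PSMC6 differed most (2.06 ± 0.08 from replicate 2 and 1.76 ± 0.08 from replicate 1), then PSMB10 (1.76 ± 0.04 and 1.22 ± 0.05), PSMD11 (1.32 ± 0.09 from replicate 2) and PSMG4 (1.26 ± 0.07 from replicate 1). Between replicates 2 and 1, 11 members were lower in replicate 2 and 1 higher (30.4% and 19.3% of all genes). PSMB10 (-0.54 ± 0.05), PSMD11 (-0.51 ± 0.11) and PSMB6 (-0.35 ± 0.09) were the lowest, and PSMD5 (0.33 ± 0.07) the higher one. The knockdown changes above are read within label series for this reason.

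Genes that work beside the proteasome were listed by role. Of 14 factors that bind or assemble it without a PSM symbol, 4, 7, 3, 4, 6 and 6 rose on the average of both lines for CDK5, HRAS, MAP2K1, MAP2K2, MAPK3 and NGFR, and 1, 1, 0, 1, 1 and 1 fell, where 8.71%, 15.4%, 7.4%, 7.99%, 11.6% and 14.1% of all genes rose and 7.82% to 20.6% fell. ADRM1, the cap's ubiquitin receptor, rose with HRAS by 0.83 ± 0.10 (adjusted p = 9.62e-11), and POMP, the chaperone that closes the core, rose in SW620 in all 6 knockdowns (0.28 to 0.51). ZFAND2A, which binds the cap under stress, rose with HRAS (0.91 ± 0.10) and fell with CDK5 (-0.38 ± 0.10). PAAF1, which holds cap ATPases apart from the core, fell with HRAS (-0.31 ± 0.05) and MAP2K2 (-0.23 ± 0.05).

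Of 10 genes that regulate proteasome genes, 1, 1, 0, 1, 1 and 1 rose in SW620, near the share of all genes (9.77% to 14.2%), and 2, 2, 3, 3, 3 and 5 fell, where 9.28% to 16.8% of all genes did. NFE2L1 itself fell there in every knockdown but HRAS (-0.29 to -0.42), and MAFF, a small MAF partner, fell in all 6 (-0.64 to -1.79). NFE2L2, the related stress factor, fell on the average of both lines with NGFR (-1.07 ± 0.10), HRAS (-0.47 ± 0.10) and MAP2K1 (-0.41 ± 0.10). KEAP1, which marks the NFE2L2 protein for breakdown, rose with CDK5 (0.35 ± 0.09), HRAS (0.37 ± 0.09), MAP2K2 (0.37 ± 0.09) and NGFR (0.22 ± 0.09). These are transcript levels; NRF1 and NRF2 are known to be controlled mostly as proteins.

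Heat shock chaperones rose in SW620 6, 10, 4, 4, 6 and 5 times of 11, with no fall, where 10.6%, 14.2%, 9.77%, 10.5%, 13.9% and 12.9% of all genes rose, and HSP90AA1 (0.35 to 0.51) and HSPA4 (0.42 to 0.55) rose in all 6. The CCT chaperonin, another ring machine of fixed proportions, had 2, 3, 2, 1, 3 and 0 rises and 0, 0, 0, 0, 0 and 1 falls of 7 there, against the same shares, and its medians were 0.09 to 0.23. Of 12 ubiquitin shuttles and p97 partners, UFD1, which helps p97 pull out substrates, rose in SW620 in every knockdown but NGFR (0.48 to 0.87), and RAD23B, a shuttle to the cap, fell with NGFR (average -1.25 ± 0.14). Of 10 genes of peptide loading on MHC class I, where proteasome products go, TAP2 fell with MAPK3 by 1.30 ± 0.08 (adjusted p = 1.87e-22). UFD1, RAD23B and TAP2 were picked after values were seen in part. Counts for their lists are not given here, so they do not stand for those lists.

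Subunit genes of other large complexes were set beside them in SW620, where 9.77% to 14.2% of all genes rose and 9.28% to 16.8% fell. Of 54 ribosomal protein genes 0, 1, 2, 1, 2 and 1 rose and 16, 24, 3, 9, 24 and 25 fell, with medians of -0.17 to -0.02. Of 74 subunits of oxidative phosphorylation 13, 3, 18, 17, 11 and 20 rose and 1, 9, 0, 0, 8 and 4 fell, with medians of -0.04 to 0.14. Between the lines, 30 ribosomal genes were higher and 0 lower in SW620, and 8 heat shock chaperones were lower and 0 higher, where 23.2% of all genes were higher and 22.1% lower.

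Members also varied together in what the model left over, which still holds knockdown changes that differed between label series. After removing group and label series, the mean correlation between 2 members over 101 arrays was 0.367, against 0.0096 between genes in general, 0.334 within the CCT chaperonin, 0.160 within oxidative phosphorylation and 0.114 within the ribosome. It was 0.395 within the core, 0.415 within the cap, 0.386 between core and cap and 0.484 within the assembly chaperones, and -0.235 among the 3 activators. Without the 6 arrays that stood apart it was 0.415 over all members and 0.442 within the CCT chaperonin, which then lay above the members. Oxidative phosphorylation then had 0.212 and the ribosome 0.140. PSME1 ran against the others (r = -0.336 with their mean). These values describe arrays that share RNA quality and hybridisation, and they carry no test.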

How the data were processed

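The deposited log2 expression values of 101 Affymetrix arrays were used as the authors gave them, made with RMA per the submitters' processing notes; the version and the annotation used for it are not given in the sources used here. RMA shares its normalization across arrays processed together, so a change of the whole distribution among them is partly removed before deposit. The 90th percentile differed between label series (8.19 to 8.58 in replicates 1 and 2, 8.82 to 8.97 in replicates 3 to 6). Whether all 101 arrays were processed together was not tested. Total RNA was extracted with Trizol and labelled as biotinylated cRNA, per the labels' protocols. Of 54675 probe sets, 41097 name 1 gene and were kept, and each gene took its probe set of highest mean (19775 genes). The number of arrays limits the precision.

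Groups came from the labels. All arrays were fitted with limma 3.58.1 (R 4.3.3) with a mean per treatment and line and a term for label series within line, with trended, robust eBayes, two-sided tests and Benjamini-Hochberg adjustment over all genes at 0.05. On simulated data for the CDK5 comparison averaged over both lines, 70% of genes changed by 0.3 (log2) and 90% of those changed by 0.5 were recovered. The simulated noise was independent between genes and arrays, and a change was the same on every CDK5 array, unlike in these data. Recovery within a line or of a difference between lines was not assessed. The members and lists were chosen with earlier results of these data known. Any member could be named; those shown by array were up to 3 of the largest rises and falls per knockdown with 1 sign in both lines, up to 2 each way per difference between lines, up to 3 each way per other comparison, and the cutting and immunoproteasome subunits and activators, with others chosen after their values were seen. Some pathway lists are given with counts and a few genes, and some by a few genes only. The listed COP9 signalosome genes and the ubiquitin genes with E1 enzymes are not described here. The genes named were also chosen after their values were seen in part. Mean correlations between members were taken on residuals of this model. Promoters came from RefSeq (GRCh38.p14), and figures were drawn with matplotlib 3.10.9.

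Alternatives were another normalization (quantile again, centring), other controls, probe sets, filters, label series and blocks, arrays left out, arrays averaged in pairs, and each replicate left out.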

Additional observations from a re-analysis of the deposited data

Results flagged for a closer look

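In the HRAS knockdown of SW620, the member median of 1 array of replicates 3 to 6 (10.77) lay apart from the others (10.80, 10.81 and 10.81). Such a gap was looked for in 16 groups, and chance gives about 1 in 20.

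The knockdown changes of several members differed between the lines by the test of the difference itself (SW620 minus SW480, limma, adjusted over all genes; the vector controls of a line are shared by all 6 knockdowns). With CDK5, PSMB3 differed by 0.68 (-0.04 in SW480, 0.64 in SW620; adjusted p = 0.00632) and PSMD2 by 0.65 (-0.02 and 0.63; adjusted p = 0.0174). With HRAS, PSMD1 differed by 0.88 (-0.25 and 0.62; adjusted p = 0.00219) and PSMD6 by 0.58 (-0.41 and 0.16; adjusted p = 0.00262). With MAP2K1, PSMD1 differed by 0.83 (-0.06 and 0.77; adjusted p = 0.00717) and PSMB3 by 0.70 (-0.15 and 0.55; adjusted p = 0.00464). With MAP2K2, PSMD2 differed by 0.67 (-0.07 and 0.60; adjusted p = 0.0147) and PSMB3 by 0.64 (0.0083 and 0.65; adjusted p = 0.00993). With MAPK3, PSMG1 differed by 0.88 (-0.03 and 0.84; adjusted p = 0.00865) and PSMD2 by 0.71 (-0.20 and 0.51; adjusted p = 0.00599). With NGFR, PSMD2 differed by 0.87 (-0.27 and 0.60; adjusted p = 0.000345), PSMB10 by 0.72 (-0.38 and 0.34; adjusted p = 5.63e-07) and PSMD10 by -0.55 (0.12 and -0.43; adjusted p = 0.0344).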

How the results depend on the processing

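Counts are member rises and falls past the threshold, over 6 knockdowns, averaged over both lines, then in SW480, in SW620, for the difference between lines, and for SW620 against SW480; the main counts were 89 and 12, 12 and 16, 113 and 8, 39 and 1, and 3 and 25. Without a term for label series they were 15 and 4, 1 and 2, 20 and 1, 1 and 0, and 1 and 18. With arrays averaged in pairs they were 31 and 4, 3 and 5, 39 and 1, 2 and 0, and 2 and 18. With replicates 3 to 6 only they were 144 and 38, 51 and 69, 161 and 30, 157 and 18, and 5 and 33, and the non-target hairpin against the empty vector gave 3 and 2. With replicates 1 and 2 only, a setting chosen after seeing the data, they were 2 and 1, 0 and 0, 0 and 0, 0 and 0, and 1 and 4. With only the groups compared they were 125 and 16, 34 and 25, 150 and 11, 90 and 5, and 6 and 28, and 10 members were lower in the vector controls than in non-transduced cells. Centred arrays gave 123 and 6, 24 and 14, 153 and 4, 68 and 0, and 3 and 26. The empty vector alone gave 63 and 7, 4 and 10, 95 and 4, 33 and 0, and 2 and 19, and the non-target hairpin alone 60 and 9, 10 and 13, 81 and 6, 17 and 0, and 2 and 15. Without all arrays that stood apart the counts were 127 and 13, 38 and 20, 142 and 8, 59 and 3, and 3 and 27, and without those of degraded RNA 102 and 14, 29 and 20, 130 and 7, 58 and 0, and 3 and 26; in both, 1 member was lower in the vector controls. Of the rest, SW480 rises were 28 after a further quantile normalisation, with 4 lower differences between lines, 19 without SW480 arrays that hold SW620 genes and 19 without dim genes, and the mean of all probe sets gave 2 lower differences.

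Leaving out 1 replicate at a time gave 59 to 139 rises and 7 to 26 falls over both lines, 6 to 28 and 6 to 33 in SW480, 83 to 146 and 4 to 12 in SW620, 17 to 94 and 0 to 5 for the difference between lines, 2 to 4 and 21 to 29 for the lines, and 0 to 2 and 0 to 7 for vector controls against non-transduced cells. The replicate block gave 81 and 10, 9 and 15, 103 and 7, 33 and 1, and 3 and 26; arrays of the same number did not deviate together (mean r -0.0134 over 224 pairs, against 0.00464 over 672 pairs of other numbers), so the numbers are no pairing.

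Changes that turned sign were, with the mean of all probe sets, PSMG4 with HRAS over both lines (0.00112), PSMB4 (-0.10) and PSMD11 (-0.32) with MAPK3 in SW620 and PSME4 with NGFR in SW620 (-0.17); with replicates 3 to 6 only, PSMC1 over both lines (-0.021) and PSMB1 in SW620 (-0.00851) with NGFR; and with replicates 1 and 2 only, PSME3 with MAP2K1 (-0.023) and MAP2K2 (-0.16) in SW620, PSMB10 with MAP2K2 between lines (-0.032), PSMC4 (-0.033) and PSMD11 (-0.056) with MAPK3 in SW620, PSMB2 with NGFR over both lines (0.031), PSMD4 with NGFR in SW480 (0.085) and PSMG3 between the lines (0.055). The cause was not tested. Of 319 member calls, 63 passed without the label series term and 105 with arrays in pairs. Depth has no meaning for arrays; PSMA8 is too dim to be read.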
